A study of Homo sapiens with 14 samples.

Results

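RNA of 7 established human neuroblastoma cell lines was compared: 3 lines on the mesenchymal side of the tumour's cell-state axis against 4 adrenergic lines without amplification of the MYCN oncogene. The mesenchymal side held GI-ME-N, SK-N-SH and SK-N-AS, and the adrenergic side held CLB-GA, NBL-S, SK-N-FI and Lan-6. They were 7 of the 14 lines of the series, and lines with amplified MYCN, together with SH-SY5Y, a subclone of SK-N-SH, were left out. Cell state and MYCN status were assigned from textbook knowledge of these lines and not from the labels, which give only the line's name and the tumour type. The labels name no treatment for any line and describe culture with serum and without antibiotics, and total RNA was sequenced from 1 library per line. Each side is a set of different lines, and every p-value below measures the spread between lines, including genetic differences and any technical difference between single libraries. SK-N-SH is known as a culture of mixed morphology, SK-N-AS is placed on the mesenchymal side less firmly than GI-ME-N, and in a bulk library fewer cells of a state and less RNA per cell cannot be told apart.

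Neuroblastoma arises from the sympathoadrenal branch of the neural crest. Adrenergic tumour cells keep the transcription factors of sympathetic neuroblasts, such as HAND2 and GATA3, and the enzymes that make noradrenaline. Mesenchymal cells resemble neural crest-derived mesenchyme, with factors such as PRRX1, AP-1 proteins and YAP or TAZ, and carry an actin- and matrix-rich programme. Cells of some lines move between the states.

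Library totals ran from 35856642 counts in Lan-6 to 49315563 in SK-N-FI, and a gene without a count may still have had up to 3, or 0.0514 to 0.098 CPM, the level unit used here (each library's counts over its total, corrected for composition). This floor reflects counting error alone. The mitochondrial share of counts was 4.97% to 9.77%. In Lan-6, levels rose with a gene's GC content (Spearman's rho across 7685 stable genes 0.61) and fell with its length (-0.339), and this trend had an SD of 0.515 log2 against at most 0.172 in the other libraries. The counts of called genes, those of each list and the main classes of pattern were therefore also taken without Lan-6. Of 20049 gene symbols, 17188 had enough counts to be tested. Levels in each sentence follow the order GI-ME-N, SK-N-SH and SK-N-AS, then CLB-GA, NBL-S, SK-N-FI and Lan-6.

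The markers that define the axis were examined first. Vimentin (VIM, chr10:17228259-17237593, plus strand), the intermediate filament of mesenchymal cells, was at 9725, 6045 and 982 CPM on the mesenchymal side and 42.3, 195, 242 and 333 CPM on the adrenergic side. All 3 mesenchymal-side lines were above all 4 adrenergic lines (VIM log2 fold change 4.78 ± 0.93 SE, adjusted p = 0.0486). Dopamine beta-hydroxylase (DBH, chr9:133635348-133659344, plus strand), which makes noradrenaline from dopamine, was at 1.51, 6.27 and 24.7 CPM against 2103, 731, 528 and 1428 CPM, with no overlap (DBH log2 fold change -6.79 ± 1.19 SE, adjusted p = 0.0352). PRRX1, a homeobox factor of limb and craniofacial mesenchyme, was at 7.19, 1346 and 4.15 CPM against 0.47, 0.0779, 0.188 and 0.098 CPM. It did not pass the threshold of 0.05 (PRRX1 log2 fold change 11.04 ± 2.31 SE, adjusted p = 0.0578), and its level in SK-N-SH exceeded those in GI-ME-N and SK-N-AS by more than 2 orders of magnitude. The 3 markers thus fell on the side given to each line, with SK-N-AS nearest the adrenergic lines for VIM, PRRX1 and DBH alike.

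Markers of other cell types were summed in every library. The leukocyte list held 11 genes, of which CD3E and MS4A1 had no count in any of the 7 libraries, and its summed level was 30.5 to 456 CPM on the mesenchymal side against 5.71 to 12.4 CPM. The highest sum was that of SK-N-AS and came mostly from PTPRC, described further on. CD68, a lysosomal protein abundant in macrophages, made up most of the sum in GI-ME-N and SK-N-SH and most of the rest in SK-N-AS. It was at 27, 44.7 and 16.3 CPM against 5.54, 2.73, 3.63 and 8.33 CPM, with no overlap (CD68 log2 fold change 2.54 ± 0.6 SE, adjusted p = 0.0821). The 8 endothelial markers summed to 2.53 to 11.4 CPM against 2.42 to 11.7 CPM, and the 9 markers of Schwann cells and melanocytes to 15.5 to 18.8 against 9.21 to 31.8 CPM. The 8 epithelial markers summed to 38.7 to 993 CPM against 6.84 to 433 CPM. KRT5 had no count in any library, but the keratin genes KRT18 and KRT8 were higher on the mesenchymal side (KRT18 log2 fold change 8.39 ± 1.45 SE, adjusted p = 0.034 and KRT8 log2 fold change 5.7 ± 1.12 SE, adjusted p = 0.0494). KRT18 was at 785, 231 and 26 CPM against 0.255, 2.9, 0.394 and 0.555 CPM. The 11 fibroblast and pericyte markers had the highest sums of these lists in every library, 1391 to 2633 CPM against 2219 to 3637 CPM. Of the 11, 8 had a log2 fold change above 0 and 3 below 0. The sides did not overlap in 3 that were higher and 1 that was lower, beside 5.37% and 7.81% of all tested genes. Only 2 passed the test, both higher, beside 0.611% of all tested genes: LUM and FAP. FAP, a serine protease of activated fibroblasts, was at 107, 64.5 and 3.53 CPM against 0, 0.0195, 0 and 0.0327 CPM (FAP log2 fold change 12.05 ± 1.54 SE, adjusted p = 0.0109). The part of other cells in any result was not tested.

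The comparison of 3 against 4 lines called 105 genes higher on the mesenchymal side (0.611% of those tested) and 187 lower (1.09%) at an adjusted p under 0.05 in edgeR's quasi-likelihood test. The median log2 fold change over all tested genes was -0.05. All mesenchymal-side values lay above all adrenergic values in 923 genes (5.37%) and below them in 1343 (7.81%). The gene with the smallest p was DOCK1 (chr10:126905409-127452517, plus strand), a guanine nucleotide exchange factor for Rac that acts in cell migration. It was at 87.9, 121 and 129 CPM on the mesenchymal side and 0.0588, 0.117, 0.0856 and 0.0327 CPM on the adrenergic side (DOCK1 log2 fold change 10.48 ± 0.58 SE, adjusted p = 0.000875), and the 3 mesenchymal-side values lay close together. Without Lan-6, 55 genes were called higher and 178 lower, of which 47 and 139 were among the calls of the full comparison. All 105 and 187 kept an unadjusted p under 0.05 without Lan-6. DESeq2 called 634 higher and 1039 lower on the same counts.

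**Figure D1:**
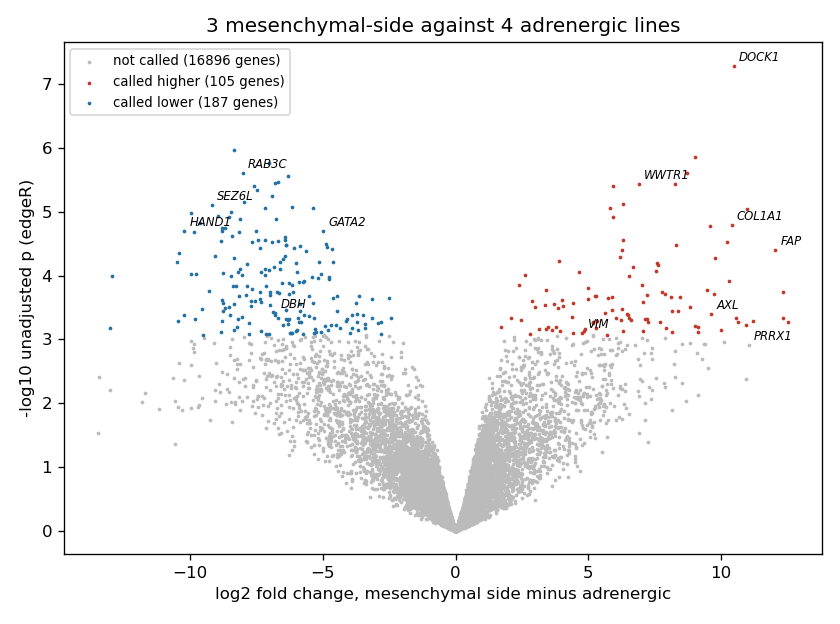
Each point is 1 of 17188 tested genes; the x axis is the log2 fold change (mesenchymal side minus adrenergic) and the y axis the negative log10 of edgeR's unadjusted p. Red points are the 105 genes called higher and blue points the 187 called lower; DOCK1 stands highest, while PRRX1 lies just under the called genes.

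Among transcription factors, every call in the adrenergic list was lower and every call in the mesenchymal list higher. The lists were chosen with earlier results of these data known, and the lines were assigned by the same states. These directions were therefore set in part in advance. Of 22 tested adrenergic transcription factors, 6 fell, none rose and 16 did not pass (median log2 fold change -1.85), beside 1.09% of all tested genes that fell. HAND1 (chr5:154474972-154478264, minus strand), a basic helix-loop-helix factor of the sympathoadrenal lineage, was at 0.0852, 0.34 and 0.0221 CPM on the mesenchymal side and 117, 93.4, 142 and 371 CPM on the adrenergic side (HAND1 log2 fold change -10.23 ± 1.19 SE, adjusted p = 0.00876). GATA2, a zinc-finger factor of sympathetic neurons, was at 16.5, 13.6 and 18.6 CPM against 646, 222, 761 and 444 CPM (GATA2 log2 fold change -4.99 ± 0.59 SE, adjusted p = 0.00876). For both genes the sides were far apart, and the SK-N-AS value lay with those of GI-ME-N and SK-N-SH. The other 4 were LMO1, a LIM-only cofactor and neuroblastoma susceptibility gene, ZNF536, INSM2 and TFAP2B, the AP-2 beta factor of sympathetic differentiation, with log2 fold changes of -6.12, -7, -8.07 and -7.13. TFAP2B was at 0.17, 4.39 and 0.243 CPM against 302, 318, 133 and 147 CPM (TFAP2B log2 fold change -7.13 ± 1.4 SE, adjusted p = 0.0488).

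Other factors of the adrenergic list did not pass over the 3 lines, and in some of them the sides still did not overlap. DACH1, a nuclear cofactor of development that was named after its values were seen, was at 0.653, 2.8 and 60.6 CPM on the mesenchymal side and 97.6, 33.9, 57.8 and 23.6 CPM on the adrenergic side (DACH1 log2 fold change -1.32 ± 1.29 SE, adjusted p = 0.767). SK-N-AS lay within the adrenergic range, and GI-ME-N and SK-N-SH were far below it. With GI-ME-N and SK-N-SH set against the adrenergic lines, DACH1 fell (log2 fold change -4.94, adjusted p = 0.0488). PHOX2A, a paired-like homeobox factor of noradrenergic neurons, was at 0.483, 84.6 and 27.3 CPM against 367, 236, 522 and 274 CPM, with no overlap, and did not pass (PHOX2A log2 fold change -3.22 ± 1.27 SE, adjusted p = 0.284). HAND2 was at 293, 106 and 488 CPM against 1021, 543, 697 and 971 CPM, with no overlap (HAND2 log2 fold change -1.45 ± 0.57 SE, adjusted p = 0.282), and GATA3, named after its values were seen, at 99, 58.1 and 82.9 CPM against 110.0, 157, 94.3 and 340.2 CPM, with overlap (GATA3 log2 fold change -1.13 ± 0.53 SE, adjusted p = 0.391), so both factors were present in every line.

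Of 27 tested mesenchymal transcription factors, 3 rose, none fell and 24 did not pass (median 2.88), beside 0.611% of all tested genes that rose. RUNX2, the osteoblast and chondrocyte factor, was at 52.4, 32.7 and 4.52 CPM on the mesenchymal side and 0.0979, 0.234, 0.205 and 0.0653 CPM on the adrenergic side (RUNX2 log2 fold change 7.58 ± 1.03 SE, adjusted p = 0.014). FOSL1, which codes for the AP-1 subunit FRA1, was at 267, 121 and 6.88 CPM against 0.235, 0.39, 0.753 and 1.01 CPM (FOSL1 log2 fold change 7.79 ± 1.22 SE, adjusted p = 0.0242). TWIST2, a basic helix-loop-helix factor of dermal and bone mesenchyme, was at 26.8, 10.4 and 6.42 CPM and had no count in any adrenergic library, so that it was at least 148-fold higher (against 3 counts in the library with the largest such floor, edgeR adjusted p = 0.0244). In RUNX2 and FOSL1 the SK-N-AS level was the lowest of the 3 but above every adrenergic line. TBX18, a T-box factor of mesenchymal progenitors, was at 100.3, 51.8 and 22.6 CPM against 0, 0.701, 0.685 and 0 CPM and missed the threshold (TBX18 log2 fold change 7.36 ± 1.61 SE, adjusted p = 0.0666).

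Other mesenchymal factors were high in GI-ME-N and SK-N-SH only. RUNX1 was at 139, 69.1 and 0.86 CPM against 0.823, 4.68, 0.582 and 0.131 CPM, GLIS3 at 16.7, 41.4 and 0.0662 CPM against 0.118, 0.253, 0.205 and 0 CPM, and BHLHE40, a circadian and hypoxia-responsive repressor, at 94.9, 85.6 and 4.12 CPM against 1.55, 5.79, 2.98 and 1.83 CPM. FOSL2 (FRA2) was at 449, 138 and 18.9 CPM against 46.2, 18.5, 25.8 and 46.8 CPM. None passed with the 3 lines together (adjusted p 0.151, 0.11, 0.0768 and 0.214). With GI-ME-N and SK-N-SH alone, GLIS3, BHLHE40 and FOSL2 rose (adjusted p 0.0221, 0.0121 and 0.0439), while RUNX1 did not pass (0.0506). RUNX1, GLIS3 and BHLHE40 were named after their values were seen. ZEB1, often taken as a mesenchymal factor, was at 28.2, 38.4 and 78.6 CPM against 107, 99.3, 131 and 33.7 CPM (ZEB1 log2 fold change -0.94 ± 0.57 SE, adjusted p = 0.546), with the sides overlapping.

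**Figure D2:**
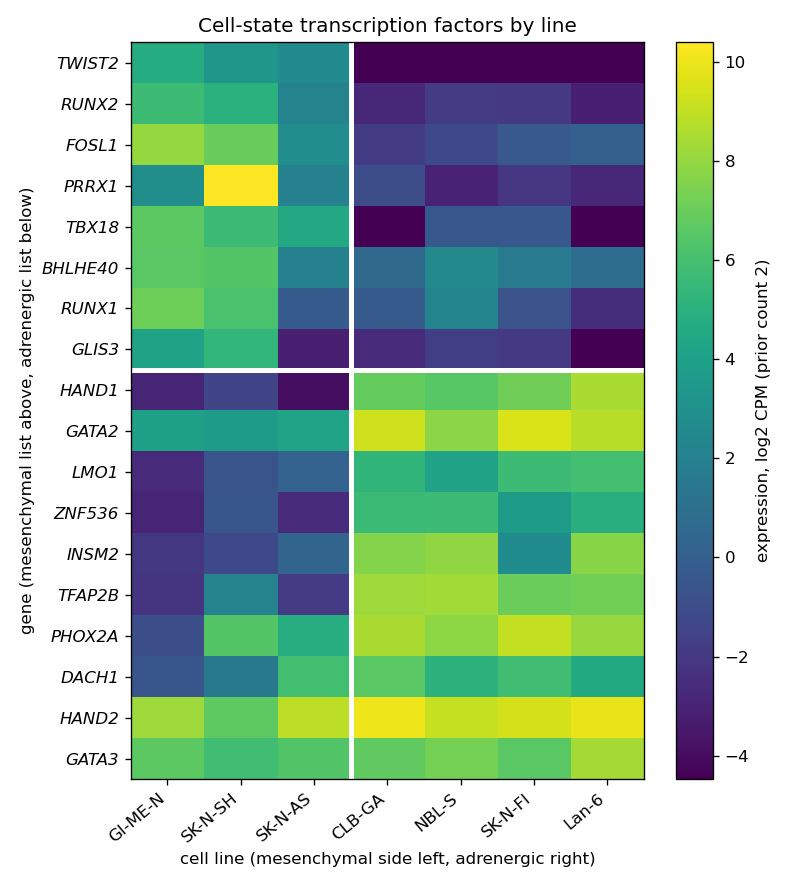
Colours give log2 CPM (prior count 2) of 8 mesenchymal-list and 10 adrenergic-list transcription factors in the 7 lines, the mesenchymal side left of the white line. HAND1, GATA2 and LMO1 are low in all 3 mesenchymal-side lines, whereas DACH1 is low in GI-ME-N and SK-N-SH and at an adrenergic level in SK-N-AS.

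Genes of catecholamine synthesis and storage were among the clearest on the adrenergic side. Of 12 tested catecholamine genes, 3 fell and none rose (median -5.26), beside 1.09% of all tested genes that fell. In 10 all mesenchymal-side values lay under all adrenergic values, and in 1 they lay above them, beside 7.81% and 5.37% of all tested genes. DDC, the decarboxylase that makes dopamine, was at 0.483, 1.62 and 0.198 CPM on the mesenchymal side and 289, 522, 211 and 249.6 CPM on the adrenergic side (DDC log2 fold change -8.69 ± 1 SE, adjusted p = 0.00872). SLC18A1, the vesicular monoamine transporter that loads catecholamines into granules, was at 0.0568, 0.392 and 0.397 CPM against 83, 142, 53.4 and 233 CPM (SLC18A1 log2 fold change -8.8 ± 1.01 SE, adjusted p = 0.00872). Together with DBH these are the 3 that passed, and in each SK-N-AS was far below the lowest adrenergic line. Tyrosine hydroxylase (TH), the rate-limiting enzyme, was at 0.597, 0 and 0.485 CPM against 710.1, 264, 5.41 and 361 CPM and missed the threshold (TH log2 fold change -9.85 ± 2.04 SE, adjusted p = 0.0562), with a wide adrenergic range whose lowest line was SK-N-FI. The noradrenaline transporter SLC6A2 was at 0.17, 6.14 and 28.1 CPM against 184, 129, 227 and 479 CPM (SLC6A2 log2 fold change -4.47 ± 1.39 SE, adjusted p = 0.174).

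Secretory granule and neuropeptide genes divided by line. Of 14 tested, 2 fell and none rose (median -3.78), beside 1.09% of all tested genes that fell. Secretogranin III (SCG3), which sorts cargo into granules, was at 0.511, 1.78 and 3.02 CPM on the mesenchymal side and 223, 266, 288 and 252 CPM on the adrenergic side (SCG3 log2 fold change -7.18 ± 0.75 SE, adjusted p = 0.0068). Neuropeptide Y (NPY), a cotransmitter of sympathetic neurons, was at 0.142, 0.183 and 0.441 CPM against 251, 68.9, 549.6 and 108 CPM (NPY log2 fold change -9.87 ± 1.15 SE, adjusted p = 0.00876). Neither exceeded 3.02 CPM (SCG3 in SK-N-AS) in any mesenchymal-side line. Chromogranin A (CHGA), the main granule protein, was instead at 1.73, 3.42 and 1814 CPM against 1899.5, 1388, 301 and 15513 CPM (CHGA log2 fold change -2.98 ± 2.26 SE, adjusted p = 0.666), with SK-N-AS inside the adrenergic range. Galanin (GAL) was at 0.455, 0.653 and 331 CPM against 133, 60.8, 675 and 145 CPM, and with GI-ME-N and SK-N-SH alone it fell (log2 fold change -8.83, adjusted p = 0.0252). CHGB was low in all 3 lines at 7.61, 5.85 and 12.7 CPM against 124, 919, 107 and 4581 CPM but missed the threshold (CHGB log2 fold change -7.36 ± 1.66 SE, adjusted p = 0.0732).

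Neuronal genes gave the most calls of any list in edgeR over all 7 lines. That order did not hold without Lan-6, where this list had 1 call and the synaptic vesicle list 5, or in DESeq2, where it had 12 and the matrix list 18. Of 20 tested genes of the neuronal cytoskeleton and adhesion list, 7 fell, none rose and 13 did not pass (median -3.96). The share called lower was 1.09% over all tested genes. The neurofilament light chain (NEFL) was at 0.0852, 0.862 and 0.11 CPM on the mesenchymal side and 18, 157, 358 and 82.5 CPM on the adrenergic side (NEFL log2 fold change -8.76 ± 1.52 SE, adjusted p = 0.0342). GAP43, a growth cone protein, was at 14.9, 7.06 and 2.23 CPM against 77.8, 125, 312 and 151 CPM, and KIF1A, the motor of synaptic vesicle precursors, at 1.25, 1.07 and 13 CPM against 498, 387, 193 and 209 CPM. STMN4, CRMP1 and INA (internexin alpha) fell as well (log2 fold changes -6.73, -3.7 and -6.23). The seventh was NEFM. In all of NEFL, GAP43, KIF1A, STMN4, CRMP1 and INA the sides did not overlap, as in all 187 genes called lower and 7.81% of those tested. ELAVL4 (HuD), an RNA-binding protein of neurons that was named after its values were seen, was at 0.71, 2.85 and 273 CPM against 544, 168, 370.2 and 125 CPM, with SK-N-AS inside the adrenergic range (ELAVL4 log2 fold change -1.71 ± 1.63 SE, adjusted p = 0.756).

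Of 17 tested genes of synaptic vesicle release, 5 fell and none rose (median -2.13), beside 1.09% of all tested genes that fell. RAB3C, a vesicle GTPase, was at 0.313, 0.183 and 0.794 CPM on the mesenchymal side and 98.4, 100.1, 138 and 114 CPM on the adrenergic side (RAB3C log2 fold change -8.01 ± 0.71 SE, adjusted p = 0.00528). UNC13A, a vesicle priming factor, was at 0.568, 1.57 and 1.1 CPM against 172, 369, 131 and 169 CPM (UNC13A log2 fold change -7.6 ± 0.71 SE, adjusted p = 0.00528). CPLX2, SYP and SYN1 completed the 5 (log2 fold changes -10.5, -5.86 and -6.7). In every mesenchymal-side line RAB3C and UNC13A were at 1.57 CPM or lower. SV2A, a vesicle glycoprotein, was at 114, 70.2 and 123 CPM against 124, 114, 81.4 and 207 CPM, and the sides overlapped (SV2A log2 fold change -0.36 ± 0.43 SE, adjusted p = 0.825).

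On the mesenchymal side, matrix genes had the highest list median. Of 29 tested extracellular matrix genes, 5 rose, none fell and 24 did not pass (median 5.22), and all 29 had a log2 fold change above 0. The share called higher was 0.611% over all tested genes. COL1A1, the main fibrillar collagen chain, was at 8341, 8316 and 643 CPM on the mesenchymal side and 6.42, 2.73, 1.68 and 6.27 CPM on the adrenergic side (COL1A1 log2 fold change 10.4 ± 1.18 SE, adjusted p = 0.00864). COL3A1 was at 749, 5093 and 1136 CPM against 6.11, 2.61, 2.33 and 0.98 CPM (COL3A1 log2 fold change 9.59 ± 1.09 SE, adjusted p = 0.00872), and COL5A2 at 469, 455 and 117 CPM against 3, 3.58, 10.3 and 1.93 CPM (COL5A2 log2 fold change 6.2 ± 0.82 SE, adjusted p = 0.0128). All 3 collagens were present in SK-N-AS at levels far above the adrenergic lines. Lumican (LUM), a collagen-binding proteoglycan, was highest in SK-N-AS at 27, 93.3 and 277 CPM against 0.784, 0.701, 2.79 and 1.47 CPM (LUM log2 fold change 6.52 ± 0.94 SE, adjusted p = 0.0173). TGFBI, a TGF-beta-induced matrix protein, was at 380.0, 3392 and 48.3 CPM against 1.21, 0.117, 0.77 and 0 CPM (TGFBI log2 fold change 11.21 ± 2.05 SE, adjusted p = 0.0394).

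Other matrix genes varied within the mesenchymal side. Fibronectin (FN1) was at 16243, 3560.0 and 41.8 CPM against 35.1, 7.31, 24.4 and 146 CPM, and in SK-N-AS it lay inside the adrenergic range (FN1 log2 fold change 6.96 ± 1.78 SE, adjusted p = 0.106). Lysyl oxidase (LOX), which crosslinks collagen, was at 241, 134 and 2.87 CPM against 5.41, 9.14, 3.95 and 3 CPM. Both rose with GI-ME-N and SK-N-SH alone (adjusted p 0.0261 and 0.00811). The basement membrane collagens COL4A1 and COL4A2 were at 0.0852, 199 and 249 and 0.199, 369 and 272 CPM, against at most 0.668 and 0.685 CPM on the adrenergic side. These 2 genes, which are neighbours on chromosome 13, were thus high in SK-N-SH and SK-N-AS and at adrenergic levels in GI-ME-N. COL1A2 was at 1716, 23.2 and 5.12 CPM, high in GI-ME-N, against at most 0.857 CPM. LOX, COL4A1, COL4A2 and COL1A2 were named after their values were seen. COL12A1, which was too low in most lines to be tested, had 4495 counts in GI-ME-N and at most 27 in any other line.

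Of 28 tested genes of the mesenchymal cytoskeleton and membrane, 5 rose and none fell (median 2.85), VIM among them. The share called higher was 0.611% over all tested genes. ANXA5 was at 663, 646 and 220.1 CPM on the mesenchymal side and 70.0, 89, 57.7 and 59.1 CPM on the adrenergic side (ANXA5 log2 fold change 2.89 ± 0.48 SE, adjusted p = 0.0276), and filamin C (FLNC), an actin crosslinker, at 774, 618 and 188 CPM against 17.8, 1.19, 2.57 and 2.09 CPM (FLNC log2 fold change 6.48 ± 1.14 SE, adjusted p = 0.0368). Both were raised in SK-N-AS. The caveolar coat genes CAV1 and CAVIN1 were called too, but with little part of SK-N-AS. CAV1 was at 358, 1442 and 0.948 CPM against 0.0979, 0.253, 0.0342 and 0 CPM (CAV1 log2 fold change 12.51 ± 2.3 SE, adjusted p = 0.0395), and CAVIN1 at 2874, 921 and 3.42 CPM against 0.94, 1.03, 2.62 and 0.327 CPM (CAVIN1 log2 fold change 10 ± 1.92 SE, adjusted p = 0.0464). TAGLN (transgelin) at 598, 497 and 4.08 CPM against 7.01, 3.21, 8.32 and 12.5 CPM and EMP1 at 213, 121 and 0.794 CPM against 0.47, 0.877, 1.64 and 0.196 CPM showed SK-N-AS within the adrenergic range. S100A6 and the hyaluronan receptor CD44 were lower in SK-N-AS than in all 4 adrenergic lines, at 502, 603 and 0.243 CPM against 24, 71.4, 115 and 0.555 CPM and 741, 633 and 0.882 CPM against 57.4, 5.96, 264 and 95.8 CPM. TAGLN, EMP1, S100A6 and CD44 were named after their values were seen.

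Integrin and TGF-beta genes had 2 calls each, all higher, beside 0.611% of all tested genes. Of 17 tested integrins, ITGA5 and ITGA2 rose and none fell (median 1.76). ITGA5, the fibronectin receptor's alpha chain, was at 159.9, 155 and 116 CPM on the mesenchymal side and 0.118, 1.77, 1.01 and 0.131 CPM on the adrenergic side (ITGA5 log2 fold change 7.55 ± 1.07 SE, adjusted p = 0.0167), and SK-N-AS lay near the other 2 lines, unlike its FN1 level. ITGB1, its partner chain, was at 1367, 2354 and 595 CPM against 384, 341, 357 and 219.7 CPM (ITGB1 log2 fold change 2.14 ± 0.52 SE, adjusted p = 0.0881). Of 18 tested genes of the TGF-beta pathway, SMAD3 and TGFBR2 rose and none fell (median 0.99). SMAD3, a receptor-regulated transducer, was at 79.3, 134 and 36.2 CPM against 5.01, 6.1, 7.02 and 4.08 CPM (SMAD3 log2 fold change 3.9 ± 0.53 SE, adjusted p = 0.0139). The type II receptor TGFBR2 was at 219, 151 and 4.83 CPM against 1.9, 1.42, 2.52 and 0.359 CPM (TGFBR2 log2 fold change 6.32 ± 1.22 SE, adjusted p = 0.0466), with SK-N-AS within 1 log2 of the highest adrenergic line. The ligand subunit INHBA was at 71.3, 760.3 and 1.04 CPM against 0.96, 0.565, 0.445 and 0.0327 CPM (INHBA log2 fold change 9.09 ± 1.99 SE, adjusted p = 0.0666).

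The Hippo pathway's coactivators were higher in all 3 lines, and their matricellular target genes chiefly in GI-ME-N and SK-N-SH. Of 22 tested genes of the YAP, TAZ and TEAD list, 4 rose and none fell (median 2.25), and all 4 were pathway components. The share called higher was 0.611% over all tested genes. WWTR1 (chr3:149517235-149736714, minus strand), which codes for TAZ, was at 65.6, 107 and 59.4 CPM on the mesenchymal side and 0.235, 0.526, 0.942 and 0.882 CPM on the adrenergic side (WWTR1 log2 fold change 6.9 ± 0.64 SE, adjusted p = 0.00528). YAP1 was at 90.3, 202 and 55.4 CPM against 0.94, 0.701, 3.37 and 1.01 CPM (YAP1 log2 fold change 6.26 ± 0.8 SE, adjusted p = 0.0109). The kinase LATS2, which inactivates both coactivators, was at 33.4, 145 and 13.7 CPM against 0, 0.0195, 0.154 and 0 CPM, and the LATS-binding protein AJUBA at 50.6, 60.9 and 41.2 CPM against 0.274, 1.89, 2.84 and 1.4 CPM (LATS2 log2 fold change 10.31 ± 1.53 SE, adjusted p = 0.0198 and AJUBA log2 fold change 4.98 ± 0.77 SE, adjusted p = 0.0226). WWTR1 and AJUBA levels were nearly the same in SK-N-AS as in GI-ME-N. The targets CCN1 and CCN2 were at 909.6, 1833 and 10.2 CPM against 0.372, 2.71, 2.41 and 0.0327 CPM and 78.9, 2370.0 and 0.838 CPM against 0.0196, 0.039, 1.52 and 0.0327 CPM, with the SK-N-AS level of CCN2 inside the adrenergic range. With those 2 lines alone CCN1 and CCN2 rose (adjusted p 0.0174 and 0.0425), while the 3-line comparison did not pass (0.0569 and 0.107). TEAD1, a DNA-binding partner of both coactivators, was at 277, 315 and 194 CPM against 244, 154, 170.0 and 64.4 CPM (TEAD1 log2 fold change 0.73 ± 0.48 SE, adjusted p = 0.599), whereas TEAD2 was at 1.48, 60.9 and 96.5 CPM against 0.0588, 0.0779, 0.924 and 0.163 CPM, high in SK-N-SH and SK-N-AS (TEAD2 log2 fold change 7.4 ± 1.58 SE, adjusted p = 0.0615).

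**Figure D3:**
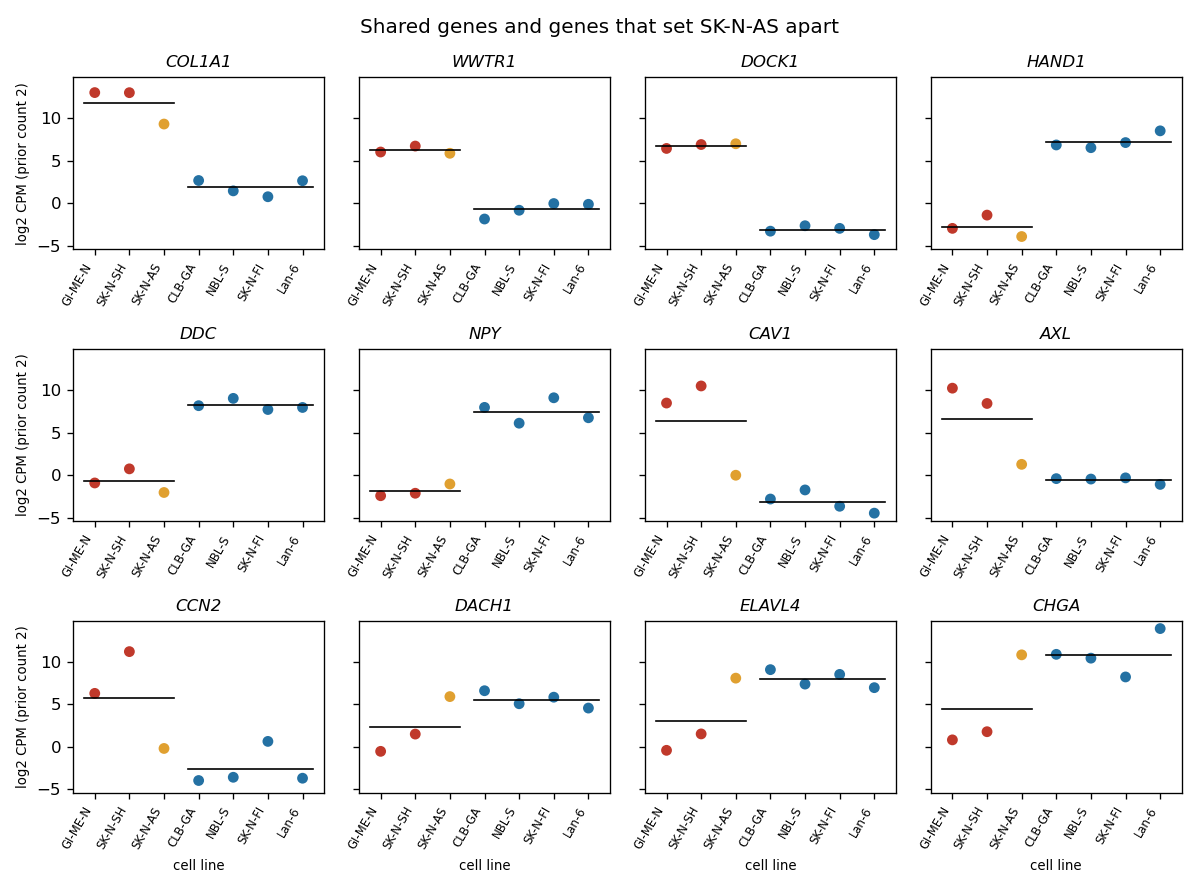
Each panel plots log2 CPM (prior count 2) of 1 gene in the 7 lines; red points are GI-ME-N and SK-N-SH, orange SK-N-AS, blue the adrenergic lines, and black lines the mean of each side. In the first 6 panels (COL1A1 to NPY) SK-N-AS lies with GI-ME-N and SK-N-SH, and in the last 6 (CAV1 to CHGA) it lies near or within the adrenergic lines.

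Receptor tyrosine kinases went both ways. Of 26 tested, 2 rose and 1 fell (median 0.04), beside 0.611% and 1.09% of all tested genes. PDGFRA, the receptor of mesenchymal progenitors, was at 74.2, 150.5 and 78 CPM on the mesenchymal side and 0.666, 5.82, 1.22 and 0.457 CPM on the adrenergic side (PDGFRA log2 fold change 5.62 ± 0.98 SE, adjusted p = 0.0354). Its ligand gene PDGFC was called as well, at 157, 118 and 18.5 CPM against 0.0979, 0.0195, 0.0514 and 0 CPM (PDGFC log2 fold change 11 ± 1.15 SE, adjusted p = 0.00682). AXL, a receptor linked to drug tolerance, was at 1204, 344 and 2.36 CPM against 0.705, 0.682, 0.753 and 0.425 CPM (AXL log2 fold change 9.64 ± 1.7 SE, adjusted p = 0.0366), with SK-N-AS close to the adrenergic level. ALK, the receptor mutated in familial neuroblastoma, fell at 0.483, 0.183 and 0.948 CPM against 239, 38.8, 57.7 and 23.8 CPM (ALK log2 fold change -7.37 ± 1.2 SE, adjusted p = 0.0265). RET, the receptor of the GDNF family, was at 0.994, 10.3 and 271 CPM against 1346, 188, 473 and 234 CPM, with SK-N-AS inside the adrenergic range (RET log2 fold change -2.57 ± 1.6 SE, adjusted p = 0.563). MET was at 367, 208 and 0.86 CPM against 16, 0.721, 22.5 and 0.229 CPM, high in GI-ME-N and SK-N-SH (MET log2 fold change 4.28 ± 1.84 SE, adjusted p = 0.334).

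Short stretches of promoter are shown for called genes that hold letters searched for as the binding motif of AP-1 or of TEAD, whose genes or partners are described above. Sequences are RefSeq's on GRCh38.p14, on the gene's strand, with 25 bases to each side of the match, or fewer at the edge of the stretch searched, and the match in capitals. The letters searched, on both strands, were TGANTCA for AP-1, where N is any base, and GGAATG for TEAD, within 250 bases before RefSeq's start of the gene. The stretches shown are examples picked from the called genes named here after the matches were seen, and they overlap no exon in GENCODE 29. Other called genes named here, such as PDGFRA and YAP1, also held the letters and are not shown. For LMO1, a stretch just after RefSeq's start was found in no GENCODE 29 transcript of the gene. RUNX2 and LMO1 are examples of the AP-1 search, with G and T in the place of N, and FLNC, SYP and DDC of the TEAD search. RUNX2 and FLNC rose, and LMO1, SYP and DDC fell.
RUNX2 (chr6:45328080-45328118, plus strand, match starting 243 bases before the start): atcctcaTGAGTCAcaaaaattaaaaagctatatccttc
LMO1 (chr11:8268855-8268911, minus strand, match starting 99 bases before the start): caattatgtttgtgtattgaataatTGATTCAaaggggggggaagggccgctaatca
FLNC (chr7:128830278-128830333, plus strand, match starting 103 bases before the start): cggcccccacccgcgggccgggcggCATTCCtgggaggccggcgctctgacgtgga
SYP (chrX:49200332-49200387, minus strand, match starting 169 bases before the start): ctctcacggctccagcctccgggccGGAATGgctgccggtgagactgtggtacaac
DDC (chr7:50565531-50565586, minus strand, match starting 156 bases before the start): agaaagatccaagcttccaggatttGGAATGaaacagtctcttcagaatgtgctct
Of 11999 promoters of tested genes in that table, 4.26% held the AP-1 letters and 9.6% the TEAD letters. Only 76.2% of the genes called higher and 75.4% of those called lower had a promoter there, under the minimum of 80%, so a comparison of shares between the called genes and the rest is void. The matches are a description of these letters and not of binding.

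Notch genes and neuroblastoma drivers were mostly not called. Of 17 tested Notch pathway genes none rose or fell in the 3-line comparison (median -0.19). DLK1, a non-canonical Notch ligand of chromaffin and sympathetic progenitors, was at 1.22, 0.941 and 28.6 CPM on the mesenchymal side and 1084, 1480.2, 1830.0 and 1653 CPM on the adrenergic side, with no overlap, but missed the threshold (DLK1 log2 fold change -7.2 ± 1.48 SE, adjusted p = 0.0544). With GI-ME-N and SK-N-SH alone it fell (adjusted p = 0.00364). NOTCH2 was at 0.114, 215 and 3.13 CPM, high in SK-N-SH, against 0.0196, 0, 0.462 and 0 CPM (NOTCH2 log2 fold change 9.13 ± 2.6 SE, adjusted p = 0.14), and NOTCH3 at 0.284, 59.5 and 158 CPM against 17.3, 9.94, 2.02 and 2.81 CPM, lowest in GI-ME-N (NOTCH3 log2 fold change 3.18 ± 1.45 SE, adjusted p = 0.369). NOTCH1, too low elsewhere to be tested, had 3025 counts in SK-N-SH and at most 49 in any other line. Of 18 tested drivers, 2 fell (ALK and LMO1) and none rose, beside 1.09% of all tested genes that fell. MYCN was at 1.22, 0.366 and 0.463 CPM against 25.5, 200.5, 47.4 and 7.02 CPM although no line of the comparison is known for its amplification, and it missed the threshold in edgeR (MYCN log2 fold change -6.68 ± 1.35 SE, adjusted p = 0.0532). The log2 fold change of MYCN passed without Lan-6 (adjusted p = 0.0407), in DESeq2 (adjusted p = 9.28e-09) and in limma on the deposited log2 values (adjusted p = 0.0455). MYC was at 138, 48.3 and 49.7 CPM against 6.17, 0.799, 7.51 and 9.47 CPM (MYC log2 fold change 3.71 ± 0.81 SE, adjusted p = 0.0667), so the 2 paralogues lay on opposite sides. Proliferation genes had no call among 10 tested (median 0.03).

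The series concerns immune recognition of neuroblastoma, so immune genes were compared across the axis. Of 19 tested genes of MHC class I presentation, none passed (median 0.89), with 17 above 0. B2M, the invariant light chain, was at 290.4, 483 and 239.5 CPM on the mesenchymal side and 70.6, 96.4, 409 and 199.7 CPM on the adrenergic side, with SK-N-FI inside the range of the mesenchymal side (B2M log2 fold change 0.8 ± 0.63 SE, adjusted p = 0.687). NLRC5, the transactivator of class I genes, was at 18.7, 14.1 and 14.4 CPM against 0.313, 0.974, 6.81 and 5.03 CPM (NLRC5 log2 fold change 2.26 ± 0.98 SE, adjusted p = 0.341), which is no overlap but no call. Of 15 tested checkpoint and surface ligands, none passed (median 1.3). CD274, which codes for PD-L1, was at 28.9, 90.5 and 1.1 CPM against 0.0196, 0.253, 2.17 and 1.76 CPM (CD274 log2 fold change 5.25 ± 1.65 SE, adjusted p = 0.175); SK-N-AS was inside the adrenergic range, and with GI-ME-N and SK-N-SH alone the adjusted p was 0.0853. PDCD1LG2 (PD-L2), too low elsewhere to be tested, had 559 counts in GI-ME-N and 860 in SK-N-SH, and at most 5 in any other line. MICA, a ligand of the natural killer receptor NKG2D, was at 31.7, 22.9 and 1.21 CPM against 0.881, 1.75, 1.2 and 0.816 CPM, and CD59, a complement inhibitor, at 641, 557 and 49.5 CPM against 62.8, 28.3, 71.1 and 77.4 CPM. Both rose with GI-ME-N and SK-N-SH alone (adjusted p 0.0148 and 0.0166).

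Cytokine receptors and interferon genes gave 1 call each, both higher, beside 0.611% of all tested genes. Of 23 tested inflammatory cytokines and receptors, only OSMR, the oncostatin M receptor, passed (median 2.2), at 147, 190.1 and 27 CPM on the mesenchymal side and 0.372, 1.79, 1.35 and 0.163 CPM on the adrenergic side (OSMR log2 fold change 7.03 ± 1.06 SE, adjusted p = 0.0209). IL1R1 was at 49.2, 31.4 and 0.485 CPM against 0.176, 0.0779, 0.0514 and 0.621 CPM and LIF at 143, 22.2 and 2.14 CPM against 2.17, 1.19, 0.205 and 1.05 CPM, both rising with GI-ME-N and SK-N-SH alone (adjusted p 0.0177 and 0.027). Of 22 tested interferon-stimulated genes, only IFITM2 passed (median 0.54), at 2.41, 57.1 and 5.38 CPM against 0.0784, 0.039, 0.0514 and 0 CPM (IFITM2 log2 fold change 8.84 ± 1.5 SE, adjusted p = 0.0309). OAS1 lay on the other side, at 0.17, 0.732 and 0.154 CPM against 2, 2.59, 21.4 and 78.9 CPM (OAS1 log2 fold change -6.21 ± 1.66 SE, adjusted p = 0.118), so the list did not move as one. None of 13 tested genes of nucleic acid sensing (median 0.6) and none of 14 genes of death receptors and apoptosis (median 0.15) passed. The AP-1 family had 1 call among 13, FOSL1 (median 0.77). CASP8, often silenced in neuroblastoma, was at 23.5, 26.6 and 37.4 CPM against 3.17, 3.55, 6.11 and 1.01 CPM, with no overlap (CASP8 log2 fold change 3.07 ± 0.66 SE, adjusted p = 0.0615). Of 9 ganglioside genes none passed (median -0.45). B4GALNT1, the synthase of GM2 and GD2, was at 29.7, 17.6 and 29.9 CPM against 126, 67.4, 136 and 60.8 CPM, with no overlap (B4GALNT1 log2 fold change -1.92 ± 0.46 SE, adjusted p = 0.0892). ST8SIA1, the GD3 synthase, was at 2.05, 0.888 and 1.17 CPM against 7.23, 8.9, 3.49 and 1.05 CPM, with overlap (ST8SIA1 log2 fold change -1.92 ± 0.89 SE, adjusted p = 0.378).

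Lists without a call in edgeR were not all empty at a looser threshold. At an unadjusted p under 0.05, which 14.5% of all tested genes reached, the MHC class I list had 4 genes higher and 0 lower and the checkpoint list 6 and 0. The Notch list had 2 higher and 4 lower, the sensing list 1 and 0, the apoptosis list 2 and 1, the ganglioside list 1 and 1 and the proliferation list 0 and 0. DESeq2 called 1, 3, 3, 0, 1, 2 and 0 genes of these 7 lists in the same order, of 19, 15, 17, 13, 14, 9 and 10 tested. Limma on the deposited log2 values called 2 genes of the Notch list and none of the other 6. Over all 17188 tested genes DESeq2 called 634 higher and 1039 lower, and limma 99 and 271. The leukocyte, endothelial and Schwann cell lists, also without a call, each had 2 or 3 genes at that unadjusted p and 2, 1 and 1 calls in DESeq2.

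The question of which genes hold in all 3 mesenchymal-side lines was put to each line against the range of the 4 adrenergic lines, with a margin of 1 log2 CPM. All 3 lines were above the range in 215 genes (1.25% of those tested) and below it in 540 (3.14%). GI-ME-N and SK-N-SH were above it in a further 290 genes (1.69%) and below it in 292 (1.7%) with SK-N-AS not outside on that side. A gene with lines outside on both sides was counted once, in its class below the range. S100A6 and CD44 were thus counted under SK-N-AS below the range, and not with GI-ME-N and SK-N-SH above it. Another 158 genes (0.919%) above and 208 (1.21%) below had SK-N-AS outside by less than the margin. The pairings with SK-N-AS were smaller: 15 genes above (0.0873%) and 149 below (0.867%) for GI-ME-N with SK-N-AS, and 72 above (0.419%) and 54 below (0.314%) for SK-N-SH with SK-N-AS. GI-ME-N by itself was above the range in 207 genes (1.2%) and below it in 494 (2.87%), SK-N-SH in 211 (1.23%) and 110 (0.64%), and SK-N-AS in 181 (1.05%) and 210 (1.22%). A gene was tested only with about 10 counts or more in at least 3 libraries. Genes high in fewer than 3 lines with few counts in all others, such as PDCD1LG2, were thus left out. The classes above the range do not count them, so their sizes depend in part on this filter. The 187 genes called lower all belonged to the class shared by the 3 lines, as did 99 of the 105 called higher. That follows in part from the test, which used the same values, and, for the genes called higher, from the filter. Without Lan-6 the shared class held 1079 genes and the class of GI-ME-N and SK-N-SH alone 785, against 755 and 582 with it.

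**Figure D4:**
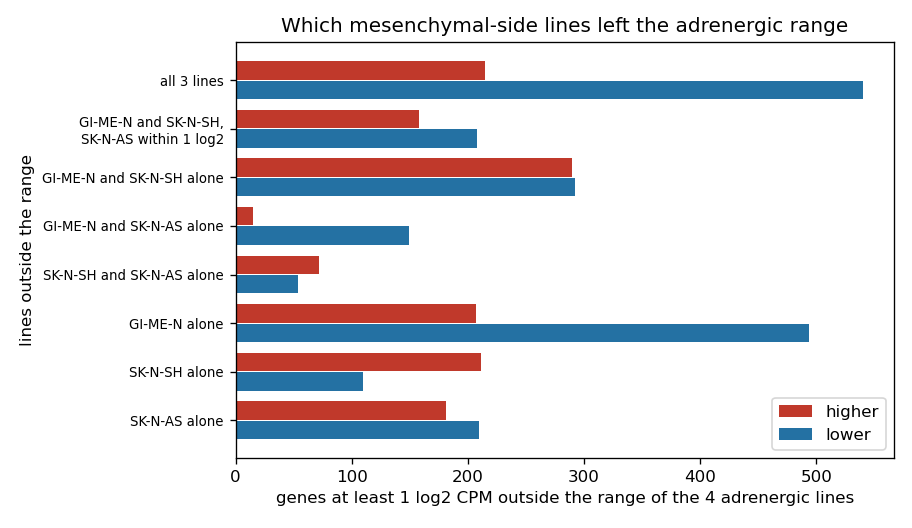
Bars count genes that were at least 1 log2 CPM above (red) or below (blue) the range of the 4 adrenergic lines, by which mesenchymal-side lines left that range. A gene with lines outside on both sides is counted once, in its class below the range. The bar of genes lower in all 3 lines reaches 540 and that of genes higher in all 3 lines 215, while GI-ME-N and SK-N-SH alone give 290 higher and 292 lower. Genes without enough counts in at least 3 lines were not tested and are not counted.

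Set against the adrenergic lines on their own, GI-ME-N and SK-N-SH had 285 genes called higher (1.66%) and 250 lower (1.45%), and SK-N-AS had 19 called higher (0.111%) and 5 lower (0.0291%). SK-N-AS is a single library there and was assumed to vary like the other groups. In simulated counts, its contrast recovered fewer of the planted changes than that of GI-ME-N and SK-N-SH. Fewer calls in SK-N-AS therefore do not show that fewer genes differed. When any 1 of the other 6 lines was left out, SK-N-AS had between 1 (without NBL-S) and 8 (without SK-N-FI) genes called higher and 0 lower. Of the 285, SK-N-AS was at or below the highest adrenergic line in 106 and more than the margin above it in 114. Of the 250 lower, it was at or above the lowest adrenergic line in 42 and more than the margin below it in 184. On a scale chosen after the values were seen, where the adrenergic mean is 0 and the mean of GI-ME-N and SK-N-SH is 1 (log2 CPM), SK-N-AS had a median position of 0.318 over the 285 and 0.684 over the 250. The genes were chosen by their values in GI-ME-N and SK-N-SH, which by itself places SK-N-AS nearer 0 on this scale. Genes high in GI-ME-N and SK-N-SH with few counts in every other line were not tested, so the 285 do not hold them. For genes that fell, levels also stop at the floor, which limits how far apart the lines can lie. The 2 medians are therefore not read as a trait of SK-N-AS, and the difference between them was not tested. The direct comparison of SK-N-AS with GI-ME-N and SK-N-SH called no gene in edgeR, with 1351 at an unadjusted p under 0.05 (7.86%), and 733 in DESeq2.

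Some genes called over the 3 lines were also called for SK-N-AS alone, among them DOCK1, WWTR1, COL1A1, PDGFC, LUM, FAP and CRIM1, all higher (adjusted p 0.00409, 0.035, 0.035, 0.035, 0.038, 0.0433 and 0.035). CRIM1, a transmembrane regulator of BMP signalling, was at 468, 1121 and 29.6 CPM against 0.431, 0.507, 0.582 and 0.261 CPM (CRIM1 log2 fold change 10.22 ± 1.25 SE, adjusted p = 0.00994). HMGA2, an embryonic chromatin protein, was at 1029, 163 and 64.1 CPM against 0.607, 0.896, 0.205 and 0.163 CPM (HMGA2 log2 fold change 9.78 ± 1.29 SE, adjusted p = 0.0128). Among genes lower in all 3, RAB3C and SEZ6L were called in SK-N-AS alone too (0.0405 and 0.038), though in no fit that left out another line. SEZ6L, a neuronal membrane protein, was at 0.313, 0.549 and 0.0662 CPM against 156, 279.5, 192 and 96.7 CPM (SEZ6L log2 fold change -9.19 ± 0.94 SE, adjusted p = 0.0068). LCP1 (plastin 2), an actin-bundling protein best known from leukocytes, was at 0.142, 0.183 and 0.0882 CPM against 130.0, 29.6, 109 and 292 CPM (LCP1 log2 fold change -9.97 ± 1.07 SE, adjusted p = 0.00721), so it was an adrenergic-side gene here. CARTPT, a neuropeptide precursor, had no count in the 3 mesenchymal-side libraries against 49.1, 35.2, 2.12 and 7.09 CPM, and was at least 274-fold lower (edgeR adjusted p = 0.0448). HMGA2, LCP1 and CARTPT were called over the 3 lines but not for SK-N-AS alone.

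In some genes called over the 3 lines, SK-N-AS was low. EFEMP1, a fibulin of the matrix, was at 607, 613 and 0.331 CPM on the mesenchymal side and 0.137, 0.0974, 0.0514 and 0 CPM on the adrenergic side (EFEMP1 log2 fold change 12.35 ± 2.22 SE, adjusted p = 0.0382). Follistatin (FST), an inhibitor of activin, was at 658, 306 and 0.838 CPM against 0.392, 0.156, 0.0171 and 0.0653 CPM (FST log2 fold change 10.95 ± 2.05 SE, adjusted p = 0.0425), and myoferlin (MYOF), a membrane repair protein, at 418, 471 and 3 CPM against 0.0784, 0.0584, 0.565 and 0 CPM (MYOF log2 fold change 10.63 ± 1.96 SE, adjusted p = 0.0395). The SK-N-AS values of EFEMP1, FST, CAV1 and AXL were above every adrenergic line and yet at most 2.36 CPM. F2RL2, a thrombin receptor, was the only 1 of the 105 genes with SK-N-AS inside the adrenergic range, at 322, 164 and 0.397 CPM against 0.176, 0.487, 0.342 and 0.131 CPM (F2RL2 log2 fold change 9.12 ± 1.77 SE, adjusted p = 0.0471). Genes with few counts in SK-N-AS and all adrenergic lines were not tested and so could not be among the 105. GLI3, a transducer of Hedgehog signalling, was instead high in GI-ME-N and SK-N-AS at 33.9, 0.392 and 40.4 CPM against 0.0196, 0.117, 0.0342 and 0 CPM (GLI3 log2 fold change 9.03 ± 1.69 SE, adjusted p = 0.0429).

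Of the genes outside the lists that were high in GI-ME-N and SK-N-SH alone, NPR3, the clearance receptor of natriuretic peptides, was at 157, 339 and 0.176 CPM against 0.196, 0.312, 0.394 and 0.0327 CPM. Transglutaminase 2 (TGM2) was at 1021, 1074 and 1.23 CPM against 3.7, 0.974, 3.37 and 0.947 CPM, and carbonic anhydrase 12 (CA12) at 579.9, 85.2 and 0.198 CPM against 0.921, 1.19, 0.428 and 0.392 CPM. Their adjusted p in the contrast of those 2 lines was 0.00511, 0.00511 and 0.00724. On the lower side, NELL2, a neuronal secreted protein, was at 1.05, 0.209 and 66.7 CPM against 362, 167, 134 and 18.5 CPM, and synapsin II (SYN2) at 0.227, 0.47 and 21.5 CPM against 46, 18.7, 277 and 54.9 CPM (0.0454 and 0.0424). For NELL2 and SYN2, SK-N-AS lay inside the range of the adrenergic lines.

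Some calls of SK-N-AS were not shared with the other 2 lines of its side. Of its 24 calls against the adrenergic lines, 18 were called in the same direction in GI-ME-N and SK-N-SH, and 6 were not. The direct comparison of SK-N-AS with those 2 lines called none of the 6. PTPRC, which codes for the leukocyte phosphatase CD45, was at 0.568, 0.549 and 439 CPM against 1.33, 0.779, 0.805 and 0.588 CPM (SK-N-AS against adrenergic, log2 fold change 8.96, adjusted p = 0.00409). The sum over the leukocyte list is given above, and the part of other cells in the PTPRC level was not tested. INHBE, an inhibin subunit, was at 2.02, 0.261 and 127 CPM against 0.353, 0.487, 0.531 and 0.653 CPM (adjusted p = 0.038). SLC7A11, the cystine transporter, was at 24.5, 32.7 and 206 CPM against 11.4, 9.62, 5.84 and 5.06 CPM (adjusted p = 0.038), so GI-ME-N and SK-N-SH were also above every adrenergic line. TCEAL7 was lower in SK-N-AS at 32.6, 24.7 and 0.0221 CPM against 56.3, 32.4, 47.9 and 66.6 CPM (0.035). COL19A1 and ARMCX2 were the remaining 2. INHBE, SLC7A11, TCEAL7, COL19A1 and ARMCX2 were named after their values were seen.

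**Figure D5:**
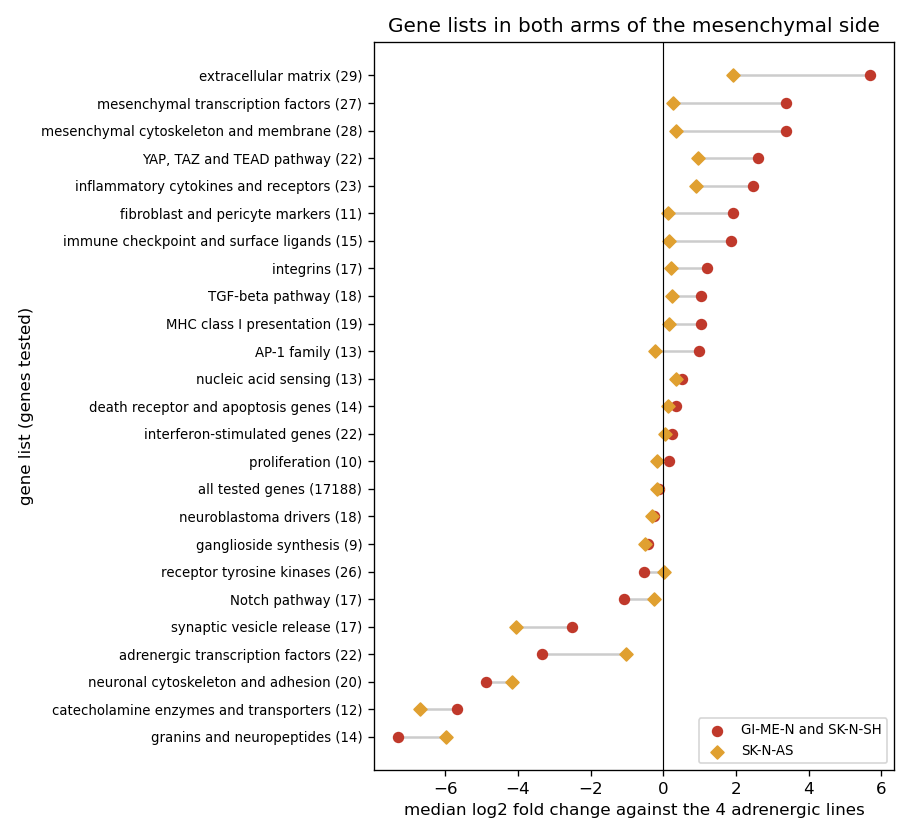
For each gene list with at least 9 tested genes, the red point is the median log2 fold change of GI-ME-N and SK-N-SH against the 4 adrenergic lines and the orange diamond that of SK-N-AS. The extracellular matrix medians are 5.7 and 1.93, the adrenergic transcription factor medians -3.34 and -1.02, and the catecholamine medians -5.67 and -6.7, beside -0.11 and -0.17 over all tested genes.

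By list, the mesenchymal transcription factors had a median log2 fold change of 3.39 in GI-ME-N and SK-N-SH and 0.26 in SK-N-AS, and the mesenchymal cytoskeleton genes 3.38 and 0.36. The catecholamine genes had -5.67 and -6.7, the granins and neuropeptides -7.31 and -5.98, and the synaptic vesicle genes -2.5 and -4.06. These 2 contrasts share the 4 adrenergic libraries. In GI-ME-N and SK-N-SH, 10 of 27 mesenchymal factors and 14 of 29 matrix genes rose, and 8 of 22 adrenergic factors fell. Over all tested genes, 1.66% rose and 1.45% fell in that contrast. Calls in SK-N-AS, a single library, cannot be set beside these counts.

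Leaving out Lan-6 reversed none of the named genes' log2 fold changes and removed many calls. The median log2 fold change over all genes moved from -0.05 to 0.03. Of the lists, the matrix genes had 4 calls in place of 5, the mesenchymal factors 2 in place of 3, the mesenchymal cytoskeleton genes 0 in place of 5, the neuronal genes 1 in place of 7 and the adrenergic factors 4 in place of 6. The granins and neuropeptides had 4 in place of 2. WWTR1, HAND1, DDC, RAB3C, SCG3 and DOCK1 passed without it (adjusted p 0.0111, 0.0156, 0.024, 0.011, 0.017 and 0.00332). VIM and DBH did not (0.091 and 0.0705), with log2 fold changes of 5.12 and -6.7 in place of 4.78 and -6.79. Such losses were not particular to Lan-6. The mesenchymal cytoskeleton genes also had 0 calls without GI-ME-N, SK-N-SH or NBL-S, 1 without CLB-GA, 2 without SK-N-FI and 9 without SK-N-AS. The neuronal genes had 1 without GI-ME-N, CLB-GA or NBL-S, 2 without SK-N-FI, 3 without SK-N-SH and 6 without SK-N-AS. VIM also missed the threshold without each other line but SK-N-AS, and DBH without GI-ME-N, SK-N-SH, CLB-GA or NBL-S.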

How the data were processed

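Per the labels' protocols, TruSeq libraries were built from TRIzol-extracted total RNA of 14 neuroblastoma lines, 1 library each, of which 7 are used here. Names appear in the submitters' processing notes, without roles: GRCh38, kallisto 0.44.0 and DESeq2 1.48.2. No source used here gives the annotation, strand setting or filters. The count table deposited by the authors holds whole numbers per gene symbol, taken to be expected counts (kallisto's estimates, rounded to whole numbers) because no source states the unit. The authors also deposited variance-stabilised log2 values, used only as an alternative.

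The members, gene lists and rules were chosen with earlier results of these data known. Counts were scaled with TMM factors, filtered with filterByExpr defaults (minimum count 10) and tested with edgeR 4.0.16 (R 4.3.3), robust quasi-likelihood, with Benjamini-Hochberg adjustment over 17188 genes and a threshold of 0.05. The first fit compared 3 lines with 4, and the second had separate groups for GI-ME-N with SK-N-SH, SK-N-AS and the adrenergic lines. CPM was computed from the scaled library totals, log2 CPM uses a prior count of 2, and fold changes carry a standard error of the fold change divided by the root of the F statistic. Of 20049 symbols, 19806 matched GENCODE 29 on GRCh38. No 2 of the 21 pairs of libraries were identical (smallest chi-square per gene 310.4). The fits were checked on simulated counts.

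Named genes were list members (per list up to 6 with the smallest p per direction and 3 that did not pass, by mean CPM), and outside the lists examples of the 12 genes per direction with the largest fold change among those called with at least 5 CPM and of the 8 largest per direction found in GI-ME-N and SK-N-SH but not SK-N-AS; others are said to be chosen after their values were seen. Alternatives were DESeq2 1.42.0 and its size factors, no filter, the non-robust fit, limma 3.58.1 on the deposited log2 values, removal of the GC and length trend, leaving out each line, other margins and prior counts, and a threshold of 0.01.

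Some genes are not reported here.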

Additional observations from a re-analysis of the deposited data

Results flagged for a closer look

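Among the 4 adrenergic lines, 125 named genes were examined for a line far from the other 3 on the log2 CPM scale, and 3 had one. The genes were named partly by their test results and share the same 4 libraries, so this count cannot be set against a chance rate. A gene without a count in any of the 4, such as TWIST2, could not show such a line. In each of the 3 the line was SK-N-FI. INSM2, a zinc-finger factor of neuroendocrine cells, was at 6.83 CPM in SK-N-FI against 196 to 244 CPM in CLB-GA, NBL-S and Lan-6. CCN2, the matricellular YAP target, was at 1.52 CPM in SK-N-FI against 0.0196 to 0.039 CPM in the others. NOTCH2 was at 0.462 CPM in SK-N-FI against 0 to 0.0196 CPM, and these levels of CCN2 and NOTCH2 outside SK-N-FI are below the floor that a count of 0 allows. No gene was called between SK-N-AS and the pair of GI-ME-N and SK-N-SH in edgeR, so no difference between the arms of the mesenchymal side was singled out.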

How the results depend on the processing

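No paired analysis was possible because each line is a different culture and the labels carry no replicate numbers. With DESeq2 in place of edgeR, 634 genes were higher and 1039 lower, and its counts for the other contrasts were 2189 (GI-ME-N and SK-N-SH), 908 (SK-N-AS) and 733 (SK-N-AS against those 2 lines). At a threshold of 0.01 in edgeR, 14 and 38 remained past it. Leaving out 1 line gave 22 (without SK-N-SH) to 327 (without SK-N-AS) genes higher and 41 (without GI-ME-N) to 247 (without SK-N-AS) lower. Without GI-ME-N 29 were higher, without CLB-GA 32 and 101 were higher and lower, without NBL-S 42 and 107, without SK-N-SH 62 lower, without SK-N-FI 67 higher and without Lan-6 55 higher. In the same way GI-ME-N and SK-N-SH gave 107 (without GI-ME-N) to 666 (without Lan-6) calls, with 166 without SK-N-SH, 297 without CLB-GA and 300 without NBL-S. SK-N-AS against the adrenergic lines fell from 24 calls to 1 (without NBL-S) to 8 (without SK-N-FI), so its single-library calls depended on every line left out; fewer samples entered each of these fits. The genes shared by all 3 lines ran from 755 to 2266 at a margin of 0 and 406 at a margin of 2, and to 1801 without SK-N-AS, when only 2 lines have to share; leaving out 1 line gave 871 to 1801. The genes found outside the adrenergic range in GI-ME-N and SK-N-SH but not SK-N-AS went from 582 to 2231 and 263 at those margins and to 377 on the deposited log2 values; leaving out an adrenergic line gave 574 to 785. With the GC and length trend removed, 1 gene was called between SK-N-AS and the other 2 lines, against 0. The causes of the differences between tools and scales were not tested. Without filter, with DESeq2's size factors, without the robust fit, with limma and with the trend removed, the counts of genes higher and lower were within 1.5 times.

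All 64 called genes named here kept their direction in each of the 11 alternatives run on single genes, and 15 passed in every one: SLC18A1, SCG3, RAB3C, UNC13A, COL1A1, COL3A1, WWTR1, YAP1, FAP, DOCK1, PDGFC, CRIM1, HMGA2, LCP1 and SEZ6L. Direction turned in 2 genes that were not called: the log2 fold change of PTPRC ranged from -0.61 (without SK-N-AS) to 7.97 (without GI-ME-N) when 1 line was left out, and that of GAL from -8.8 (without SK-N-AS) to 0.01 (without SK-N-FI). The depth leaves genes under about 0.1 CPM undetectable in single libraries.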
